A study of Mus musculus with 31 samples.

Results

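Neuropeptide genes were followed through the developing olfactory and trigeminal nerves of the mouse. The 8 genes are Npy (neuropeptide Y), Calca and Calcb (the 2 calcitonin gene-related peptide genes), Tac1 (substance P and neurokinin A), Adcyap1 (pituitary adenylate cyclase-activating polypeptide), Gal (galanin), Vip (vasoactive intestinal peptide) and Sst (somatostatin). They were chosen by symbol, and all 8 were found among the 47729 genes of the count table, which names genes by Ensembl identifier. In GRCm38 they lie at chr6:49822710-49829507 (Npy, ENSMUSG00000029819, plus strand), chr6:7554879-7565834 (Tac1, ENSMUSG00000061762, plus), chr17:93199017-93206537 (Adcyap1, ENSMUSG00000024256, plus), chr19:3409915-3414544 (Gal, ENSMUSG00000024907, minus), chr10:5639218-5647617 (Vip, ENSMUSG00000019772, plus) and chr16:23889573-23890958 (Sst, ENSMUSG00000004366, minus), with Calca (ENSMUSG00000030669) and Calcb (ENSMUSG00000030666) near each other on chromosome 7. None overlaps another annotated gene. RNA from laser-microdissected pieces of nerve was sequenced in 31 libraries from embryonic days E11.5, E13.5 and E16.5. The question behind the design was how olfactory ensheathing cells, the glia of the olfactory nerve, differ along that nerve and with age, and from Schwann cells, the glia of the trigeminal nerve.

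All embryos carried the Sox10:H2BVenus transgene, a bacterial artificial chromosome with Sox10 regulatory sequence that drives a nuclear fluorescent protein in cells that express Sox10. No group was treated or mutant. Fluorescence guided the laser, but each piece was tissue and also held axons, vessels and neighbouring cells, pooled over several sections. At E16.5 the groups were olfactory nerve from beneath the olfactory epithelium (4 libraries), outer and inner olfactory nerve layer (ONL; 4 libraries each) and trigeminal nerve from branches near the olfactory system (3 libraries). The ONL is the sheet of axons and glia around the olfactory bulb, and "inner" and "outer" pieces were cut by distance from the bulb, not along a visible border, so a piece of either name may hold cells of both layers and the pieces do not resolve the layers cell by cell. At E13.5 there were olfactory nerve (7 libraries) and ONL (5 libraries), and at E11.5 olfactory nerve only (4 libraries).

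The library labels and the study's own table of group means disagree on the early libraries. For 10 of the 31 libraries the label names another group than the one whose mean they make up. The grouping by the table of means was used here: E13.5 ONL holds the 4 libraries labelled E11.5 olfactory nerve and replicate 1 of those labelled E13.5 olfactory nerve, the E13.5 nerve group holds the other 6 of that label together with the first library labelled E13.5 ONL, and the E11.5 nerve group holds the remaining 4 with that ONL label (replicates 2 to 5). Averaged in this way, the counts gave the table's group means, relative to inner ONL, to within 0.000423% for 95% of the genes compared, whereas by label the median gene was off by 3.49% to 30.9% in the 3 early groups. Tbr1, a transcription factor of bulb projection neurons, averaged 267 CPM (counts-per-million) in E13.5 ONL so grouped, against 0.784 and 5.37 in the E13.5 and E11.5 nerve. Fold changes of the 8 genes that involve E11.5 or E13.5 are given with their value under the labels, since the sign can depend on the grouping, while levels, marker sums and shares of genes that do not overlap are given by the grouping used here. At these stages there were more libraries than embryos, so some libraries shared an embryo, and p-values there are too small by an unknown amount.

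Library totals ran from 3512627 to 36705535 counts. At E16.5 they were 13379107 to 16800784 in the olfactory groups and 30221586 to 32508725 in trigeminal nerve. The glial gene Sox10 averaged 335 CPM in trigeminal nerve. Omp, the marker of mature olfactory neurons, averaged 39.5 CPM in E16.5 olfactory nerve but 0.657 in the trigeminal pieces.

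Neuropeptides are made as precursors, cut by prohormone convertases, packed into dense-core vesicles and released to act on G protein-coupled receptors. Most are products of neurons. Neuropeptide Y is also known from ensheathing glia of the olfactory nerve layer, while calcitonin gene-related peptide and substance P are classical transmitters of pain-sensing trigeminal neurons. Reads from a piece of nerve can come from glia, from RNA carried in axons or from nearby cell bodies, and in such bulk samples fewer cells of a type and less RNA per cell cannot be told apart.

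Calca and Calcb lie on chromosome 7 (GRCm38 chr7:114631478-114636357, minus strand, and chr7:114718643-114723365, plus strand), and their transcripts are alike enough that counting could assign reads of one to the other. Over 384 aligned coding bases of the closest pair of GENCODE M21 transcripts, 85.9% were identical, and the longest stretch shared by any 2 transcripts of the pair was 61 bases. Of 358 windows of 30 bases in the coding sequence of Calca-201, 35 occurred unchanged in a Calcb transcript. The most alike 120 bases are shown because they carry this ambiguity, with the 5 bases that differ in capitals (coding bases 227 to 346 of Calca-201, spanning chr7:114632481-114634468, and 230 to 349 of Calcb-201, spanning chr7:114720214-114722093).
Calca: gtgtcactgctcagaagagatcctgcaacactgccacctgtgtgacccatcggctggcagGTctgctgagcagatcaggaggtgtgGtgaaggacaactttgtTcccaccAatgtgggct
Calcb: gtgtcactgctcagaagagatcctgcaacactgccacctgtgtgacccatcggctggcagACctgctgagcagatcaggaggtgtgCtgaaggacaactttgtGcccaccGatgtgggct
Calca makes both calcitonin and calcitonin gene-related peptide by alternative splicing, and counts per gene do not separate them. In the olfactory libraries with the most counts of Calca, 747 and 680, Calcb had 7 and 4 counts, so few reads of Calca were counted as Calcb there. The reverse could not be seen from these libraries.

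RefSeq promoter windows (GRCm38.p6, 250 bases before to 50 after the transcript start) were found for 7 of the 8 genes. The cyclic AMP response element, TGACGTCA, classically described at the Sst promoter, was searched as these letters, and its shorter core as TGACG on both strands (the full element contains the core on each strand). The core was present in the windows of 6 genes and absent from that of Npy, against 20.8% of all 32851 windows. The full element was present in Sst only, against 1.79% of all windows. The SOX core ACAAAG, also on both strands, was found in Adcyap1 only, against 18.7% of all windows. These are matches of letters and not shown binding sites. The windows of Npy (chr6:49822460-49822759, plus strand), which the E16.5 results turn on, and of Tac1 (chr6:7554811-7555110, plus strand) and Sst (chr16:23890795-23891094, minus strand), which were both higher in inner ONL than in olfactory nerve, are shown 5′ to 3′ with element or core in capitals.
Npy: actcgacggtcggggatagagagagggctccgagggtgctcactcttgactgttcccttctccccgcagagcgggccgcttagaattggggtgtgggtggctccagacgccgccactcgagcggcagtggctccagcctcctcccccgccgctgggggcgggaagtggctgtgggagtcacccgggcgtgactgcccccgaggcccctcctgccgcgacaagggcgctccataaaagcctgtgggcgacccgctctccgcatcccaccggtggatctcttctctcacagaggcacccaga
Tac1: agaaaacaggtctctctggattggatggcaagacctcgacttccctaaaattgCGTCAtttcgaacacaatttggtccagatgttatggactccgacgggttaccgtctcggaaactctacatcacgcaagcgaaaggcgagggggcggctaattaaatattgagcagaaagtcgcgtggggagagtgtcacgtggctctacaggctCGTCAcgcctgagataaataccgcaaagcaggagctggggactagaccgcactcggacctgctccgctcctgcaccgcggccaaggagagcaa
Sst: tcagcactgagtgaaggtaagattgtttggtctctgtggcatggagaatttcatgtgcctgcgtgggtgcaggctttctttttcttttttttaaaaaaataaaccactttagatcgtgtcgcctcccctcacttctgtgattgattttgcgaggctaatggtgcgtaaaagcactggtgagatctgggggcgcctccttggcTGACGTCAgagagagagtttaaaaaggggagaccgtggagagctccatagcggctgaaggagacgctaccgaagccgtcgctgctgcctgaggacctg

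By group mean, the genes were highest in different groups. Npy was high in the ONL pieces, Calca and Calcb in trigeminal nerve, Tac1 in inner ONL, and Adcyap1, Gal and Sst in E11.5 olfactory nerve, while Vip was at or near 0 everywhere. Levels are CPM after trimmed-mean scaling, and a mean stands with the SD of its group's libraries. The floor of detection was set at 3 counts, which were worth 0.0795 to 0.83 CPM depending on the library. Differences are log2 fold changes with their standard error (SE), tested with edgeR's quasi-likelihood test, and called at a Benjamini-Hochberg adjusted p under 0.05 over the 19332 genes tested. Of the 8 genes, 7 passed the filter on low counts and Vip did not.

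**Figure D1:**
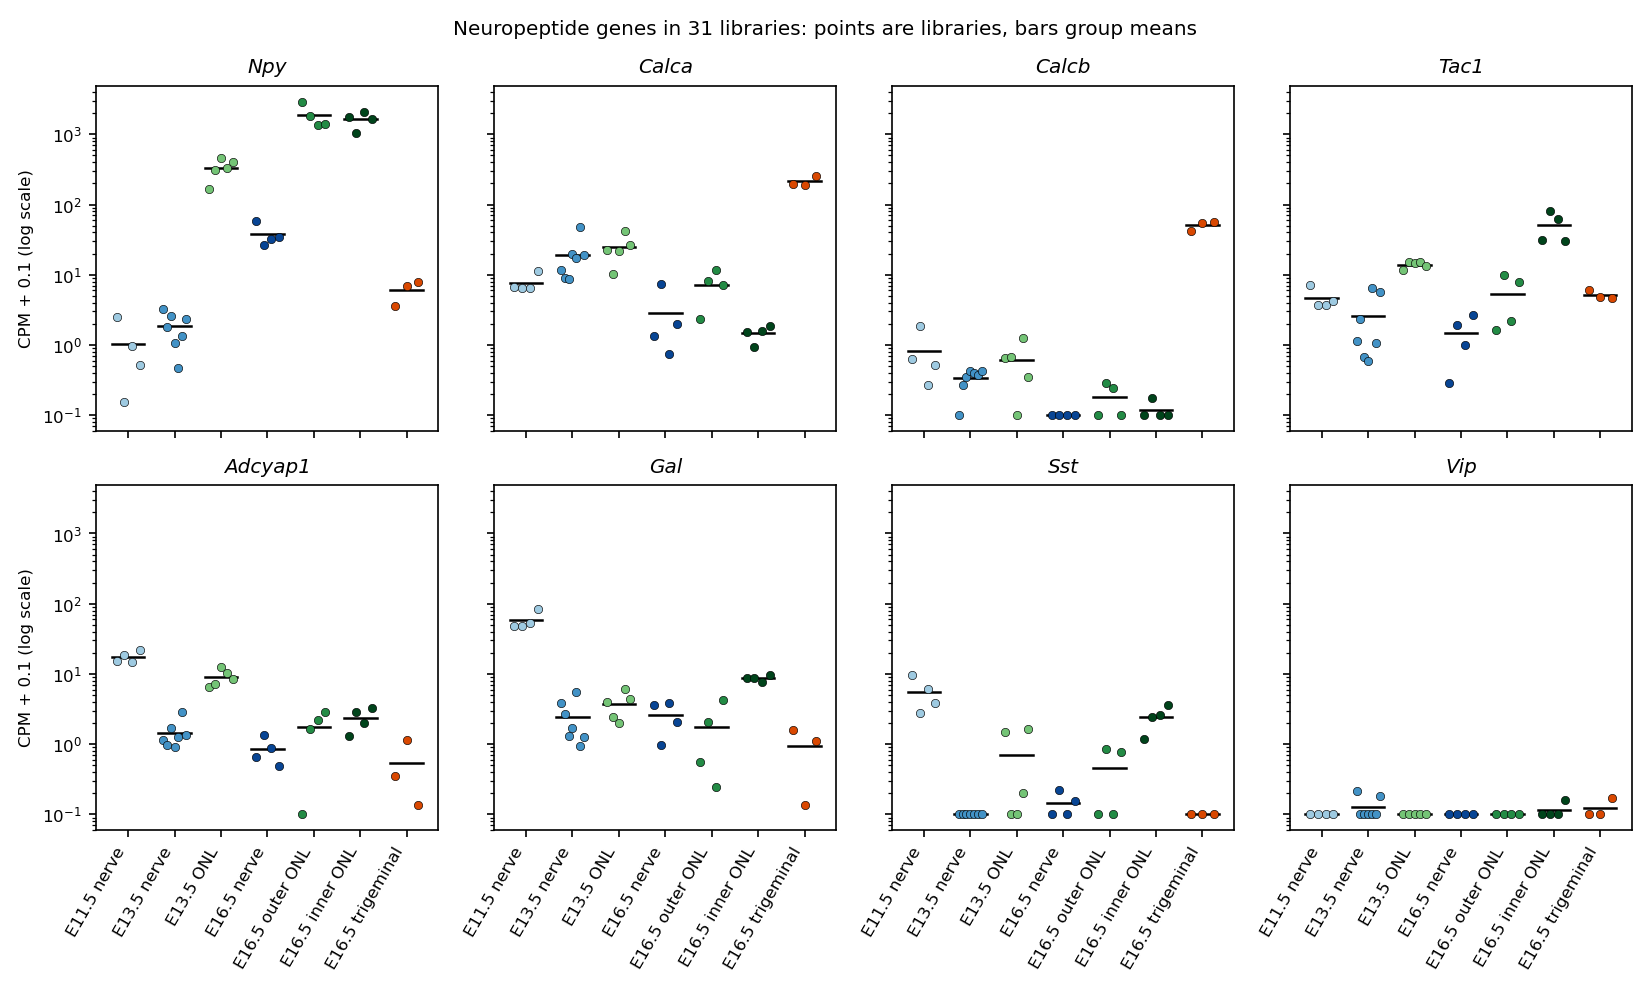
Level of each neuropeptide gene in each of the 31 libraries, as CPM + 0.1 on a log axis (points) with the group mean (bar), for the 7 groups. Npy stands at 1045 CPM or more in all 8 E16.5 ONL libraries, and Calca and Calcb are highest in the 3 trigeminal libraries.

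Per kilobase of exon, Npy had the highest level of the 8 genes in outer ONL (3311 CPM), inner ONL (2910 CPM) and E13.5 ONL (588 CPM). In E16.5 outer ONL the 4 libraries had 2915, 1845, 1338 and 1397 CPM. The inner ONL libraries had 1785, 1045, 2105 and 1654 CPM, and those of the nerve 58.0, 26.3, 32.2 and 33.8 CPM. Both ONL groups lay wholly above the nerve and overlapped each other, with means of 1874 ± 730 CPM (outer, SD, n = 4), 1647 ± 444 CPM (inner, n = 4) and 37.6 ± 14.0 CPM (nerve, n = 4). Trigeminal nerve had 3.46, 6.78 and 7.90 CPM, below every E16.5 olfactory library.

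In E16.5 inner ONL, 5 of the 8 neuropeptide genes were called higher than in olfactory nerve (Npy, Tac1, Adcyap1, Gal and Sst) and none lower, while of all genes tested 35.5% were called, 17.7% higher and 17.8% lower, and 36.6% had groups that did not overlap. In outer ONL 2 were called higher (Npy and Tac1), with 22% of all genes called, 10.2% higher and 11.8% lower, and 24.3% not overlapping. Without outer ONL replicate 1, Calca and Adcyap1 were called higher as well, so that 4 were called. Npy was higher than in nerve by 5.45 log2 units (SE 0.53, adjusted p = 1.66e-09, edgeR) in inner ONL and by 5.64 (SE 0.53, adjusted p = 3.75e-09) in outer ONL. Npy was also higher than in trigeminal nerve, by 8.09 (SE 0.68, adjusted p = 6.61e-11) in inner ONL, by 8.27 (SE 0.69, adjusted p = 1.58e-10) in outer ONL and by 2.63 (SE 0.53, adjusted p = 0.000386) in olfactory nerve. The last of these was not called when the early libraries were grouped by label in the shared fit (2.63, SE 1.49, adjusted p = 0.242). No E16.5 library changes group by label. For this and the other comparisons within E16.5, the label grouping thus acts through the spread estimated over all libraries. Scaling by total counts moved the median of all genes to -0.136 and -0.127 in the inner and outer ONL comparisons with nerve, to 0.118, 0.13 and 0.244 in those of inner ONL, outer ONL and nerve with trigeminal nerve, and to -0.101 between E13.5 ONL and nerve. No call on Npy in these comparisons was lost by it.

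The ONL pieces also held more Sox10. Mean Sox10 was 646 ± 61.0 CPM in outer ONL, 550 ± 133 in inner ONL and 126 ± 37.5 in the nerve (SD, n = 4 each). The difference in Npy was larger than that in Sox10. The log2 ratio of Npy to Sox10 was 1.57 ± 0.05 in inner ONL, 1.47 ± 0.54 in outer ONL and -1.75 ± 0.83 in nerve (SD, n = 4 each), so the ratio was higher by 3.32 and 3.22 log2 units (two-sided exact permutation p = 0.0286, adjusted p = 0.0381 over 4 comparisons, the smallest p that 4 against 4 allows). The libraries were taken as unpaired in this test, and with 4 pairs a paired exact test could not pass the threshold. Without any one library this design cannot pass the threshold. Outer and inner ONL differed by -0.11 in the ratio (exact permutation p = 0.743), and by 0.059 without outer ONL replicate 4.

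**Figure D2:**
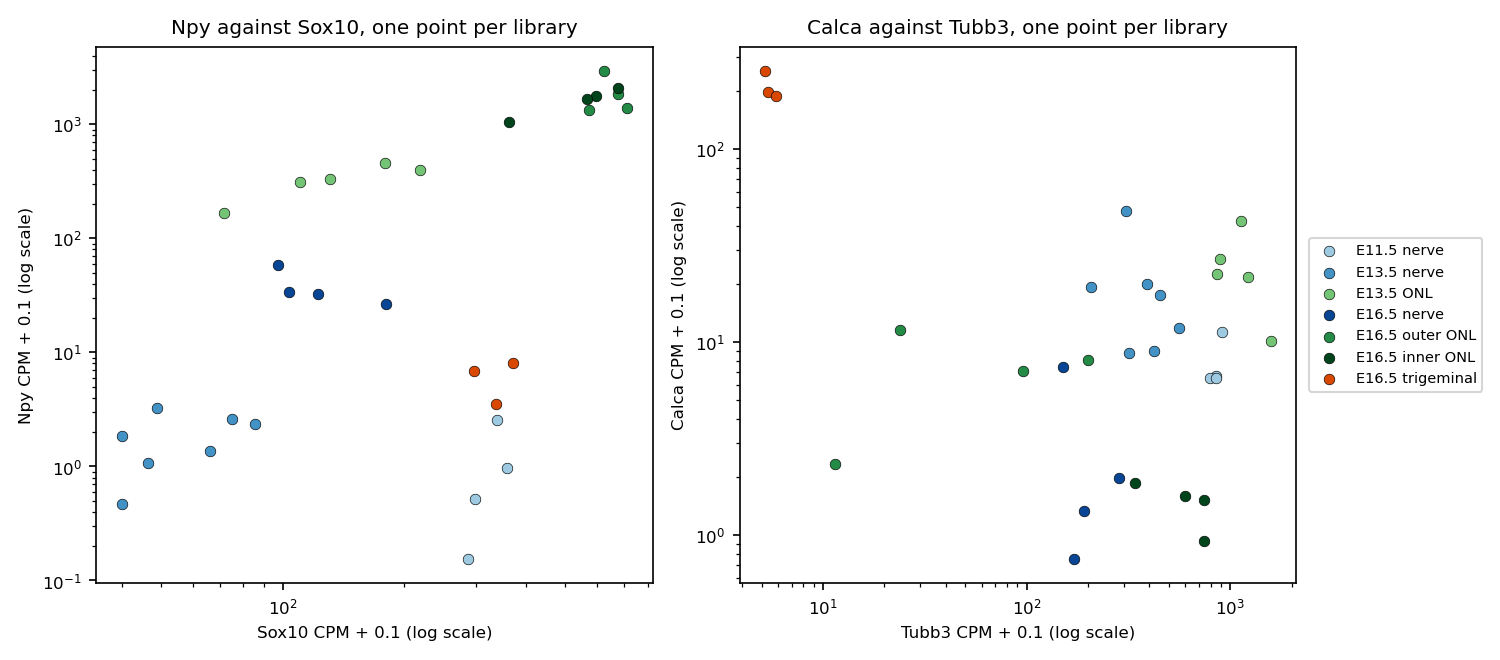
Npy against Sox10 (left) and Calca against Tubb3 (right), as CPM + 0.1 on log axes, with 1 point per library and colours for the 7 groups. Trigeminal and E11.5 nerve libraries have 287 to 371 CPM of Sox10 but no more than 7.90 CPM of Npy. The 3 trigeminal libraries have the highest Calca and the lowest Tubb3.

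Markers of bulb and forebrain neurons moved with position in the ONL as well. Their summed level over 11 genes was 498 to 956 CPM in the inner ONL libraries, 16.9 to 192 in the outer ones and 120 to 216 in those of the nerve, of which Reln alone made 114 on average. All 11 of these markers were called higher in inner than in outer ONL, where 14.1% of all genes tested were called, 8.2% higher and 5.94% lower. Npy overlapped between inner and outer ONL, and the part of these neurons in its level was not tested.

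At E13.5 Npy already separated the ONL from the nerve. The 5 ONL libraries had 166, 313, 458, 329 and 397 CPM, and the 7 nerve libraries had between 0.37 and 3.16 CPM with a median of 1.73. The groups did not overlap. In this comparison 4 neuropeptide genes were called higher in ONL (Npy, Tac1, Adcyap1 and Sst) and none lower, with 31.5% of all genes called, 15.4% higher and 16.1% lower, and 19.6% not overlapping. Npy was higher by 7.54 (SE 0.47, adjusted p = 3.58e-13). By label the direction turned, to -5.68 (SE 1.39, adjusted p = 0.00747, 17.7% of genes called). The high libraries then count as E11.5 olfactory nerve (4 libraries) and E13.5 olfactory nerve (1 library). Relative to Sox10, Npy was higher by 6.01 log2 units (exact permutation p = 0.00253, adjusted p = 0.0101; by label -3.52, adjusted p = 0.0381).

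With age, Npy rose in both places by the grouping used here. From E13.5 to E16.5 it was higher by 4.39 (SE 0.45, adjusted p = 2.19e-08) in olfactory nerve and by 2.49 (SE 0.42, adjusted p = 2.04e-05) from E13.5 ONL to E16.5 outer ONL. By label these became -0.65 (adjusted p = 0.717) and 10.67 (adjusted p = 1.82e-05). At E11.5 the nerve libraries had 2.44, 0.0543, 0.871 and 0.42 CPM. These overlapped the E13.5 nerve, and neither grouping called a difference between the 2 stages.

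Over the 31 libraries, the genes whose log2 level was most like that of Npy were Prss56 (Pearson r = 0.985), Cd200 (r = 0.968), Apcdd1 (r = 0.965), Grin3a (r = 0.963) and 2700046A07Rik (r = 0.957), out of 12295 compared. These are descriptions, as libraries of a group share tissue and stage. Prss56, a serine protease gene, averaged 671 CPM in inner ONL, 413 in outer, 66.6 in E13.5 ONL, 15.2 in E16.5 olfactory nerve and at most 2.09 in the other groups.

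Calca and Calcb marked the trigeminal nerve. The 3 trigeminal libraries had 198, 188 and 253 CPM of Calca and 41.5, 55.0 and 56.1 CPM of Calcb. The E16.5 olfactory nerve libraries had 1.24, 7.36, 0.65 and 1.88 CPM of Calca and no count of Calcb in any of 4. All trigeminal libraries lay above all olfactory ones at every stage for both genes. Per kilobase of exon, Calca averaged 127 ± 20.9 CPM and Calcb 40.2 ± 6.43 CPM in trigeminal nerve (SD, n = 3), within the limit on telling the genes apart shown by their sequences.

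Against trigeminal nerve, 4 neuropeptide genes were called in olfactory nerve (Npy higher, Calca, Calcb and Tac1 lower). Of all genes tested 23.6% were called there, 13% higher and 10.6% lower, and 33.7% did not overlap. In outer ONL 4 were called (Npy and Sst higher, Calca and Calcb lower), with 25.8% of all genes called, 12.3% lower and the rest higher, and 34% not overlapping. In inner ONL 7 were called (Npy, Tac1, Adcyap1, Gal and Sst higher, Calca and Calcb lower), with 38.1% of all genes called, 19.2% higher and 19% lower, and 45.3% not overlapping. Calca was lower in olfactory than in trigeminal nerve (log2 fold change -6.25, SE 0.65, adjusted p = 1.93e-08, edgeR). The change was -4.89 in outer ONL (SE 0.61, adjusted p = 2.54e-07) and -7.26 in inner ONL (SE 0.69, adjusted p = 7.19e-10). Calcb was at or under the floor in all E16.5 olfactory libraries, and set against that floor the trigeminal mean was at least 278-fold higher than in olfactory nerve, at least 249.6-fold higher than in outer ONL and at least 241-fold higher than in inner ONL.

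Tubb3 and markers of peripheral sensory neurons were low in the trigeminal pieces. Tubb3 was at 5.23, 5.74 and 5.07 CPM there, against 150 to 283 CPM in E16.5 olfactory nerve. Summed over 11 markers of peripheral sensory neurons, trigeminal libraries had 9.06 to 11.03 CPM and olfactory nerve libraries 59.6 to 99.9 CPM. Of these, Scn10a was at 0 in all 3 trigeminal libraries and Pou4f1 was at or under the floor. Summed markers of olfactory sensory neurons were lower there as well, at 328 to 394 CPM against 515 to 931 CPM in olfactory nerve. Summed levels of the bulb and forebrain list ran the other way, at 231 to 250 CPM in trigeminal and 120 to 216 CPM in olfactory nerve libraries. In trigeminal nerve Neurod6 of that list had no count, and Stoml3 and Ano2 of the olfactory list were at or under the floor. A few members can carry such a sum, so it is not a measure of how many neurons a piece held. Whether the Calca and Calcb reads came from axons or from other cells was not tested.

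Ratios to Tubb3 also carry the difference in Tubb3 itself, which averaged 5.35 CPM in trigeminal and 198 in olfactory nerve. The log2 ratio was higher in trigeminal than in olfactory nerve by 11.47 for Calca and 6.83 for Tac1. It was higher by 4.56 for Adcyap1 and 3.81 for Gal as well, although the levels themselves ran the other way (means of 0.445 against 0.741 CPM for Adcyap1 and 0.836 against 2.51 for Gal). Both genes had a trigeminal library at 1 count, so these sizes depend on the 0.5 CPM added before the ratio. No size is given for Calcb, which had no count in olfactory nerve. The libraries did not overlap in any of these ratios, nor did they in Tubb3 itself. With 3 against 4 libraries a two-sided exact permutation p cannot be under 0.0571, which each of the ratios gave.

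Within the ONL, Calca differed with depth. The outer libraries had 2.22, 7.98, 11.46 and 6.96 CPM and the inner ones 1.41, 0.828, 1.49 and 1.75 CPM. The groups did not overlap, and inner was lower than outer (log2 fold change -2.37, SE 0.60, adjusted p = 0.00613). In this comparison 3 neuropeptide genes were called (Calca lower, Tac1 and Gal higher in inner ONL), with 14.1% of all genes called, 8.2% higher and 5.94% lower, and 18.8% not overlapping.

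Calca was also present in the olfactory nerve before E16.5. At E13.5 the nerve libraries ran from 8.71 to 47.6 CPM (median 17.4) and the ONL libraries from 10.1 to 42.6 CPM (median 22.4), and the 2 overlapped. By E16.5 the nerve was lower than at E13.5 (log2 fold change -2.78, SE 0.53, adjusted p = 0.000232; by label -2.86, adjusted p = 0.000724) and did not overlap it. Outer ONL was lower than E13.5 ONL (-1.78, SE 0.52, adjusted p = 0.00605), though not by label (-0.46, adjusted p = 0.537). From E11.5 to E13.5 the nerve was higher in Calca by 1.32 (SE 0.48, adjusted p = 0.0292). That call was lost by label (-0.25, adjusted p = 0.789), with the replicate number as a block (0.95, adjusted p = 0.142), without the library labelled E13.5 olfactory nerve replicate 7 (0.91, adjusted p = 0.107), and without any one of those labelled E13.5 ONL replicates 2, 3 and 4 (1.25 to 1.26, adjusted p 0.0686 to 0.0733).

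Calcb was low in the olfactory groups. At E11.5 it had 0.53, 1.77, 0.166 and 0.42 CPM and at E13.5 0 to 0.332 CPM in nerve and 0 to 1.14 CPM in ONL. It was called lower in E13.5 than in E11.5 nerve (-1.62, SE 0.64, adjusted p = 0.0475), which rested on the library labelled E13.5 ONL replicate 3 (-0.69 and adjusted p = 0.434 without it) and was lost by label (-1.24, adjusted p = 0.294), with the replicate block (adjusted p = 0.195), under total count scaling (adjusted p = 0.0507) and without any one of 7 others (adjusted p 0.0522 to 0.0901). The 7 are the E13.5 nerve libraries, that is replicates 2 to 7 by that label and the first library labelled E13.5 ONL. The calls between E13.5 and E16.5 set 1 group at the floor against values of a few counts, so no size is given for them.

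Over the 31 libraries the genes most like Calcb were Crxos (r = 0.972), Lhx8 (r = 0.961) and AI606473 (r = 0.957), each averaging over 20 CPM in trigeminal nerve and under 1 CPM in every other group. For Calca they were Iqgap2 (r = 0.872), Wwp1 (r = 0.823) and Mkks (r = 0.821).

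**Figure D3:**
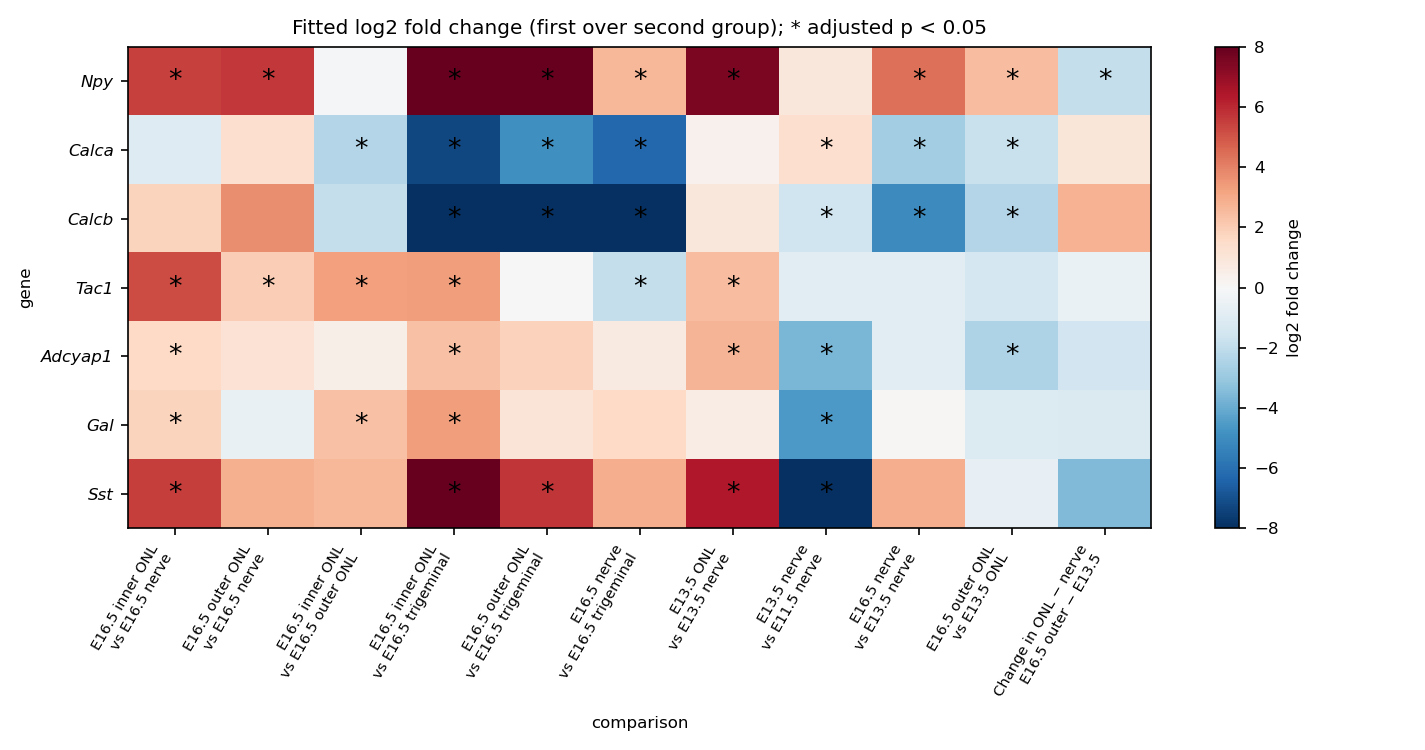
Fitted log2 fold change of the 7 genes tested in the 10 comparisons and for the change in the ONL minus nerve difference between stages (colour, red for higher in the first group, cut at 8 in either direction), with an asterisk where the adjusted p was under 0.05. Npy is called in 8 of the 10 comparisons, and folds of genes at the floor (Calcb, Sst) depend on the prior count.

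Tac1 was highest in the inner ONL pieces. The inner libraries had 30.7, 82.0, 62.9 and 30.3 CPM, against 1.53, 9.74, 2.06 and 7.87 in the outer libraries and 0.186, 1.86, 0.91 and 2.55 in those of the nerve. Inner ONL lay above all other groups, while outer ONL overlapped the nerve. Inner was higher than nerve by 5.21 (SE 0.73, adjusted p = 1.28e-06), than outer ONL by 3.27 (SE 0.66, adjusted p = 0.00064) and than trigeminal nerve by 3.33 (SE 0.74, adjusted p = 0.00051). By the study's account, the inner ONL pieces also held tissue of the olfactory bulb. Among the E16.5 pieces the inner ones were the richest in markers of bulb and forebrain neurons. Of the 11 markers, 9 were called higher in inner ONL than in nerve, where 35.5% of all genes were called and 17.7% called higher. Slc17a7, a glutamate transporter gene of projection neurons, averaged 76.1 CPM in inner ONL, 6.43 in the outer pieces and 1.46 in the nerve. The part of these neurons in the Tac1 result was not tested.

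Outer ONL was called higher in Tac1 than nerve (1.94, SE 0.67, adjusted p = 0.0358). This call was lost by label (adjusted p = 0.096), under total count scaling (1.81, adjusted p = 0.0589) and without any one of nerve replicates 1 and 3 or outer ONL replicates 2 and 4 (1.47 to 1.74, adjusted p 0.1 to 0.143). Trigeminal nerve had 5.99, 4.73 and 4.63 CPM, above all 4 nerve libraries (nerve minus trigeminal -1.88, SE 0.70, adjusted p = 0.0489). This was not called by label, under 2 other scalings or under a stricter filter (adjusted p 0.0565 to 0.117), nor without any one library but nerve replicate 4 (adjusted p 0.0606 to 0.135).

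At E13.5 the ONL had 11.6, 15.2, 14.4, 15.1 and 13.1 CPM of Tac1 and the nerve 0.487 to 6.37 CPM (median 1.05). ONL was higher by 2.50 (SE 0.53, adjusted p = 0.000416) and did not overlap the nerve. By label the value was 0.40 (adjusted p = 0.685). Between E11.5 and E13.5 nerve Tac1 was called by label only (-1.96, SE 0.64, adjusted p = 0.0342). The genes most like Tac1 were 2900011O08Rik (r = 0.887), the neuronal tubulin gene Tubb2a (r = 0.879) and A230077H06Rik (r = 0.873).

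By group mean, Gal, Adcyap1 and Sst were highest in the earliest nerve, though Sst there overlapped E16.5 inner ONL (1.08 to 3.56 CPM). Gal was at 47.3, 48.2, 53.3 and 84.4 CPM at E11.5 and between 0.839 and 5.48 CPM (median 1.62) at E13.5. Adcyap1 was at 15.4, 18.4, 14.9 and 21.6 CPM at E11.5 and between 0.811 and 2.73 CPM (median 1.18) at E13.5. Sst was at 9.41, 2.64, 6.10 and 3.75 CPM at E11.5 and had no count in any of the 7 E13.5 nerve libraries. None of the 3 genes overlapped between E11.5 and E13.5 nerve, and 21.2% of all genes tested did not.

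From E11.5 to E13.5, 5 of the 8 genes were called in olfactory nerve (Calca higher, Calcb, Adcyap1, Gal and Sst lower), with 36.6% of all genes called, 20.2% higher and 16.4% lower, and 17.5% by label. Gal fell by 4.61 on the log2 scale (log2 fold change -4.61, SE 0.56, adjusted p = 2.01e-07) and Adcyap1 by 3.67 (-3.67, SE 0.52, adjusted p = 2.18e-06). Sst at E11.5 was at least 21.2-fold higher than the E13.5 floor. By label the values were -0.28 for Gal (adjusted p = 0.851), -1.90 for Adcyap1 (adjusted p = 0.0569) and 0.34 for Sst (adjusted p = 0.916), with the 4 high libraries counted as E13.5 ONL. Gal was then called higher in E13.5 ONL than in E13.5 nerve (4.04, SE 0.69, adjusted p = 0.000473) and lower in E16.5 outer ONL than in E13.5 ONL (-4.80, SE 0.91, adjusted p = 0.000162).

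Some neuronal markers were high in the E11.5 libraries too, and others were not. Th, the tyrosine hydroxylase gene, averaged 102 CPM at E11.5 and 0.312 CPM in E13.5 nerve, while the autonomic markers Dbh and Hand2 had no count at E11.5. Summed sensory neuron markers were 137 to 233 CPM at E11.5 and 63.6 to 116 CPM in E13.5 nerve, with P2rx3 at 40.9 CPM against 2.87 CPM. Tubb3 averaged 853 ± 48.1 CPM (n = 4) against 379 ± 113 CPM (n = 7). Summed markers of bulb and forebrain neurons ran the other way, at 67.2 to 86.9 CPM at E11.5 and 96.1 to 129 CPM in E13.5 nerve. Sox10 averaged 321 CPM at E11.5 and 57.4 CPM in E13.5 nerve, while summed glial markers overlapped (537 to 965 and 484 to 1069 CPM). The part of neurons or glia in the fall of Gal, Adcyap1 and Sst was not tested. Among the genes most like Gal were Ache (r = 0.903) and Slc1a6 (r = 0.881), those most like Adcyap1 were A730020E08Rik (r = 0.914), Gipr (r = 0.885) and Fam131b (r = 0.884), and Asic4 led for Sst (r = 0.928).

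The E13.5 ONL held more Adcyap1 than the nerve of its age. Its libraries had 6.36, 7.20, 12.4, 10.3 and 8.31 CPM, all above the 7 nerve libraries (2.70, SE 0.50, adjusted p = 7.41e-05; by label 2.56, adjusted p = 0.0107). By E16.5 outer ONL was lower than this (log2 fold change -2.44, SE 0.60, adjusted p = 0.00138; by label -3.12, adjusted p = 0.00492), at 0, 1.57, 2.13 and 2.81 CPM. The E13.5 ONL group by label shares no library with the one used here, so like signs are not a second test of the same samples. Sst in E13.5 ONL was seen in 3 of 5 libraries, at 1.38, 0.104 and 1.54 CPM, the second of them 1 count. It was called against the nerve, where it had no count, and the ONL mean was at least 2.34-fold higher than the floor (by label 3.98, adjusted p = 0.0186). Without the library labelled E13.5 olfactory nerve replicate 1 that call was lost (adjusted p = 0.0535).

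At E16.5 Gal was above the floor in every olfactory nerve library, and both Gal and Sst were above it in every inner ONL library. Gal had 8.68, 8.73, 7.69 and 9.52 CPM there, above all other E16.5 libraries, which ran from 0.0361 to 4.09 CPM. It was higher than in outer ONL by 2.35 (SE 0.66, adjusted p = 0.0135), than in trigeminal nerve by 3.36 (SE 0.77, adjusted p = 0.000719) and than in olfactory nerve by 1.79 (SE 0.64, adjusted p = 0.0289). Against outer ONL the call was lost by label (adjusted p = 0.0845), with the replicate number as a block (adjusted p = 0.0531) and without outer ONL replicate 1 or 3 (2.04 and 1.98, adjusted p = 0.0547 and 0.0519). Against nerve it was lost by label (adjusted p = 0.102), in a fit of E16.5 libraries alone (adjusted p = 0.0723), with the block (adjusted p = 0.0863) and without nerve replicate 2 or 4 or inner ONL replicate 2 or 4 (1.5 to 1.74, adjusted p 0.0516 to 0.0927).

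Sst had 1.08, 2.33, 2.51 and 3.56 CPM in inner ONL, at least 12.9-fold above the floor of olfactory nerve and 21.8-fold above that of trigeminal nerve, where no library had a count. In outer ONL it was above the floor in 2 of 4 libraries, at 0.754 and 0.671 CPM. The call of outer ONL against trigeminal nerve was lost by label (adjusted p = 0.093) and without any one of outer ONL replicates 2 and 4 and trigeminal replicates 1, 2 and 3 (adjusted p 0.0648 to 0.0761). Gad1, a marker of inhibitory bulb neurons, averaged 69.4 CPM in the inner pieces, 11.505 in the outer ones and 1.49 in the nerve, and its part in the Gal and Sst results was not tested.

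Adcyap1 was low in every E16.5 group, at 1.21, 2.78, 1.88 and 3.13 CPM in inner ONL and 0.557, 1.24, 0.78 and 0.388 CPM in nerve. The call between these (1.60, SE 0.64, adjusted p = 0.0492) was lost in every other way of processing tried except DESeq2 (1.49 to 1.60, adjusted p 0.0564 to 0.168) and without any one of nerve replicates 1, 3 and 4 and inner ONL replicates 2, 3 and 4 (adjusted p 0.0679 to 0.16). Against trigeminal nerve inner ONL was higher by 2.32 (SE 0.71, adjusted p = 0.00992). That call was lost by label (adjusted p = 0.0662), in E16.5 libraries alone with or without the replicate block (adjusted p = 0.0519 in both), and without trigeminal replicate 1 or 3 (2.09 and 1.83, adjusted p = 0.0511 and 0.0547).

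Vip was not detected above the floor in any library. Its highest count was 2, in 1 E13.5 nerve library and in 1 trigeminal library, so no group could be compared and a level under the floor of 3 counts cannot be told from 0 at this depth.

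From E13.5 to E16.5, 3 of the genes were called in olfactory nerve (Npy higher, Calca and Calcb lower), with 28.8% of all genes called, 15.2% higher and 13.6% lower, 21.2% not overlapping, and 25.1% called by label. In the ONL 4 were called in outer ONL against E13.5 ONL (Npy higher, Calca, Calcb and Adcyap1 lower), with 41.9% of all genes called, 21.9% higher and 20% lower, 32.2% not overlapping, and 35.2% called by label. The ONL minus nerve difference itself was tested between the stages, and Npy was the only one of the 8 called (12.3% of all genes called, 5.59% larger and 6.75% smaller). It was smaller at E16.5 by 1.90 log2 units (-1.90, SE 0.61, adjusted p = 0.038). With the replicate number as a block it was not called (-1.42, adjusted p = 0.183), and by label it turned to 11.32 (adjusted p = 0.000538), where Calca (2.40, adjusted p = 0.038) and Gal (-4.61, adjusted p = 0.00538) were called as well (12.5% of genes).

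Receptors for these peptides were called in both directions. Of 25 receptor and receptor-partner genes in the list, 24 were in the table and 20 were tested. In inner ONL 8 were called higher and 3 lower than in olfactory nerve, in outer ONL 4 higher and 2 lower, where 35.5% and 22% of all genes tested were called. The list medians were 0.51 and -0.10 against 0.00 and 0.01 over all genes tested. Tacr1, the receptor for substance P, was higher by 5.44 (SE 0.89, adjusted p = 1.96e-05) in inner and by 5.09 (SE 0.89, adjusted p = 9.53e-05) in outer ONL, at 7.30 and 5.73 CPM against 0.154 CPM. Adcyap1r1, the receptor for the Adcyap1 peptide, was higher in inner ONL by 3.15 (SE 0.53, adjusted p = 2.16e-05). Npy1r, a receptor for neuropeptide Y, ran the other way, at 16.8 CPM in the nerve, 3.76 in inner and 3.13 in outer ONL (-2.42, SE 0.41, adjusted p = 4.95e-05 in outer ONL). In trigeminal nerve Npy6r averaged 6.72 CPM and Npy5r 2.33 CPM, against at most 0.216 and 0.449 CPM in the other groups. Calcrl, the core of the calcitonin gene-related peptide receptor, was called lower in inner than in outer ONL (-1.66, SE 0.31, adjusted p = 0.000282), and its partner Ramp1 higher (2.14, SE 0.58, adjusted p = 0.0104). Calcrl is known from vessels, and the endothelial marker Cdh5 was also called lower in inner than in outer ONL (-1.16, SE 0.38, adjusted p = 0.0383). Its part in the Calcrl result was not tested.

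**Figure D4:**
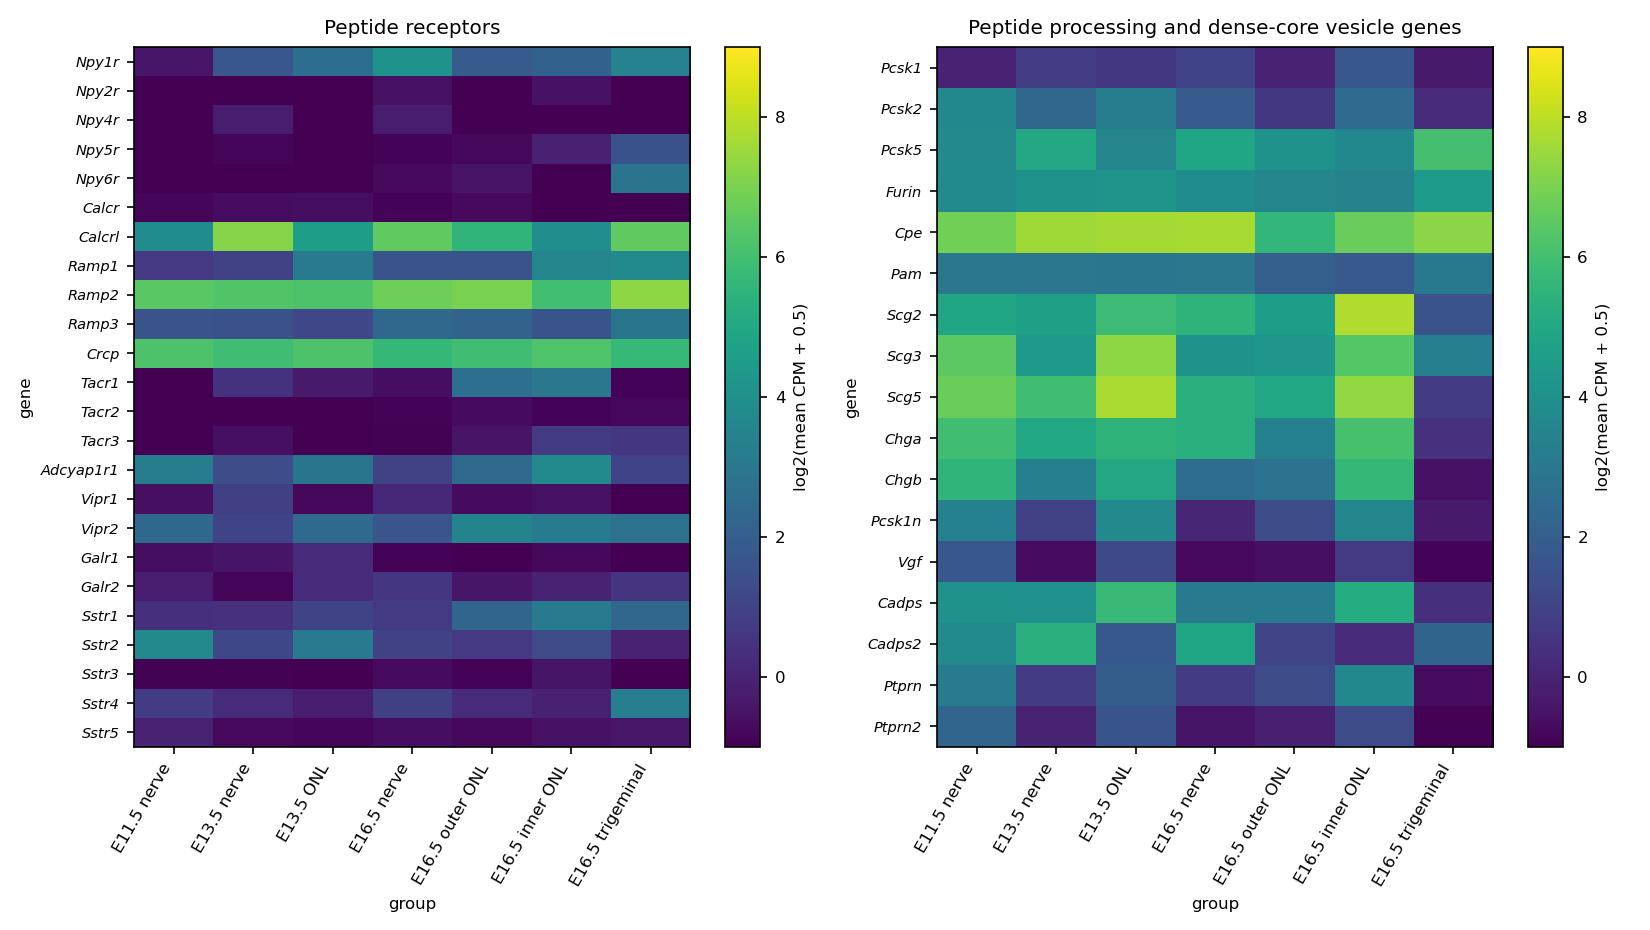
Mean level of 24 receptor genes (left) and 17 genes of peptide processing and dense-core vesicles (right) in the 7 groups, as log2(mean CPM + 0.5). Secretogranin and chromogranin genes are lowest in trigeminal nerve, and Npy6r is highest there.

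Of 17 genes for making and packing peptides, 11 were called higher and none lower in inner than in outer ONL, where 14.1% of all genes were called (list median 2.32, against -0.05 over all genes tested). Tubb3 averaged 606 ± 191 CPM in inner and 82.5 ± 86.3 CPM in outer ONL (SD), and the part of neurons in this difference was not tested. Against olfactory nerve 9 of the 17 genes were higher and 4 lower in inner ONL (35.5% of all genes called). The 4 were Pcsk5, Cpe, Pam and Cadps2, of which the first 3 encode enzymes that process precursors. Against trigeminal nerve 12 were higher and 4 lower (38.1% of all genes called, median 4.73). Scg2, a secretogranin of dense-core vesicles, averaged 223 CPM in inner ONL, 44.4 in olfactory nerve, 23.3 in outer ONL and 2.41 in trigeminal nerve. Chga, chromogranin A, averaged 0.835 CPM in trigeminal nerve, where Calca and Calcb were highest. Outer ONL, where Npy overlapped its inner ONL levels, had none of the 17 called higher than in nerve and 6 lower (22% of all genes called), among them Cpe, the carboxypeptidase that trims peptide precursors (-2.09, SE 0.36, adjusted p = 5.5e-05), and Chga (-2.01, SE 0.36, adjusted p = 9.63e-05).

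Enzymes that degrade peptides went both ways. Of 8, 2 were called higher and 3 lower in inner ONL than in nerve (35.5% of all genes called, median -0.42). Dpp4, which trims neuropeptide Y, was higher in both inner (3.33, SE 0.59, adjusted p = 3.5e-05) and outer ONL (2.47, SE 0.57, adjusted p = 0.00181), and Fap was lower in both (-2.79, SE 0.36, adjusted p = 3.34e-07, and -1.18, SE 0.34, adjusted p = 0.0114).

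Among 40 other precursor genes, 39 were in the table and 23 tested. In inner ONL 4 were called higher and 5 lower than in nerve (median 0.07), where 35.5% of all genes were called. Trh, the thyrotropin-releasing hormone gene, was higher by 6.44 (SE 0.96, adjusted p = 3.17e-06), at 98.2 against 1.11 CPM, and Nts, neurotensin, by 5.28 (SE 0.90, adjusted p = 2.33e-05). Penk, proenkephalin, ran the other way, at 489 CPM in olfactory nerve, 87.4 in the outer pieces and 11.7 in the inner ones (-5.39, SE 0.51, adjusted p = 9.42e-10). Pdyn, prodynorphin, averaged 3.67 CPM in the inner pieces and 0.976 in the outer ones, and had no count in nerve or trigeminal libraries of that stage.

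In the early groups the 4 lists depended on the grouping. Between E13.5 ONL and nerve, 31.5% of all genes were called, 15.4% higher and 16.1% lower (17.7% called by label). There 7 receptors were called higher and 4 lower (2 and 1 by label), and 9 processing genes higher and 2 lower (4 and 0 by label). The list medians were -0.04 and 1.199 against -0.03 over all genes. Of the other precursors 5 were called higher and 3 lower (3 and 3 by label), with Nts at 683 CPM in ONL and 1.198 in the nerve, and of the degrading enzymes 2 each way (1 and 2 by label). From E11.5 to E13.5 in the nerve, 2 processing genes were called higher and 9 lower (2 and 4 by label), with Scg3, a secretogranin, at 89.4 and then 19.6 CPM. Of all genes 36.6% were called there, 20.2% higher and 16.4% lower (17.5% called by label). From E13.5 ONL to E16.5 outer ONL none of the 17 processing genes was called higher and 12 were lower (11 by label), with a list median of -2.16. In that comparison 41.9% of all genes were called, 21.9% higher and 20% lower (35.2% called by label). Npy rose over the same interval by the grouping used here.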

How the data were processed

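RNA from 31 laser-microdissected samples had been sequenced as paired ends after PicoPure extraction and SMART-seq amplification. According to the submitters' processing notes and the study's methods, reads were checked with FastQC, aligned with TopHat2 2.1.0 to mm10 and counted per gene with HTSeq. The authors deposited 1 table of whole-number counts, not normalized, with 1 column per library. The strand setting is not given in the sources used here. The last line, with no gene identifier, was left out.

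Counts were tested with edgeR 4.0.16 (R 4.3.3), quasi-likelihood with TMM scaling, a filter on low counts, 1 fit over 31 libraries and Benjamini-Hochberg adjustment over all 19332 genes tested. SEs were taken from the log2 fold change and its F statistic. Ratios of genes used log2(CPM + 0.5) and exact permutation tests, two-sided, in SciPy 1.17.1. Alternatives were grouping by label, DESeq2 1.42.0, other scalings and filters, E16.5 libraries alone, a replicate block, and leaving out each library. Symbols, positions and lengths came from GENCODE M21. A table of group means in the study served only to settle the grouping. The floor of 3 counts covers counting error only, since reads carried no molecular identifiers.

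The members, the gene lists and the grouping of the early libraries were chosen with earlier results of these data known. Folds are given for members where called under either grouping, and for at most 4 genes of a list, those of largest fold among the called. Some genes that this rule or the lists would name are not reported here. Marker lists were of glia, sensory, olfactory, bulb and autonomic neurons, vessels and axons. In E16.5 samples of the same replicate number, deviations from the group means of 12149 genes correlated at 0.221 to 0.481 in all 4 pairs of olfactory nerve and outer ONL, so that the numbers may pair these samples. The results are from the unpaired fit, and the blocked fit is an alternative. In the other pairs of groups not every correlation was over 0.1. By the study's account, trigeminal and olfactory pieces at E16.5 were cut from shared sections, so groups of that stage shared embryos. Replicate numbers carry no stated link to embryos, so which samples match is not given. The main fit took the groups as independent, and p-values measure the spread between these samples.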

Additional observations from a re-analysis of the deposited data

Results flagged for a closer look

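Of 37 sets of 4 to 10 libraries (1 gene in 1 group), 2 held a library whose gap to the rest was large for the range of its group, where chance gives about 1 in 20. In E11.5 olfactory nerve, the library labelled E13.5 ONL replicate 5 had 11.1 CPM of Calca (344 counts) against 6.43 to 6.597 in the other 3. In E13.5 olfactory nerve, the library labelled E13.5 olfactory nerve replicate 2 had 0 counts of Calcb, where the other 6 had 0.173 to 0.332 CPM, all within a few counts of 0.

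The difference in Npy between ONL and olfactory nerve was itself smaller at E16.5 than at E13.5, by a log2 value of -1.90 (adjusted p = 0.038). Without any one of 9 of the 20 libraries in it, the call was lost, with values from -1.89 to -1.61. By label the 9 were E11.5 olfactory nerve replicate 3, E13.5 olfactory nerve replicates 1, 5, 6 and 7, E16.5 olfactory nerve replicate 1 and outer ONL replicates 2, 3 and 4. The lowest of these sizes, -1.61 (adjusted p = 0.102), came without E16.5 olfactory nerve replicate 1.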

How the results depend on the processing

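Grouping the early libraries by label changed the most. It reversed Npy between E13.5 ONL and nerve (-5.68), Npy from E13.5 to E16.5 nerve (-0.65), the stage difference of Npy (11.32), Npy relative to Sox10 at E13.5 (-3.52), and Calca (-0.25) and Sst (0.34) from E11.5 to E13.5, and the cause was not tested beyond the change of libraries. It called 3 of the neuropeptide genes between inner ONL and nerve at E16.5, 1 between outer ONL and nerve, 2 between olfactory and trigeminal nerve, 1 from E11.5 to E13.5 and 3 for the stage difference. Under the other alternatives, leaving out libraries apart, 93 of 99 counts of the neuropeptide genes called and ratios, and 353 of 374 fold changes of single genes and counts over all genes, kept their direction and their side of the threshold or, for counts, stayed within 1.5 times, and none reversed. The other 21 of these 374 changed side or moved further. The 6 counts that moved were the count between inner ONL and nerve (3 with a stricter filter, 3 with E16.5 libraries alone and 3 with the replicate block there), that between outer ONL and nerve (1 with total count scaling), and, with the replicate block over all libraries, the counts from E11.5 to E13.5 (3) and for the stage difference (0). The replicate block kept 2 calls in the comparison of outer ONL with nerve, the pair whose numbers may pair the samples, and otherwise lost only calls named beside their results, and between E13.5 ONL and outer ONL that of Calcb (adjusted p = 0.0698).

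Leaving out each library in turn gave 3 to 5 called genes between inner ONL and nerve, 1 to 4 between outer ONL and nerve, 3 to 5 from E11.5 to E13.5 and 0 to 2 for the stage difference, where Calca was called without E16.5 olfactory nerve replicate 2 (2.12). Gal was called between E13.5 ONL and outer ONL without outer ONL replicate 4 (-2.05), and Calcb there was lost without any one of 6 of the 9 libraries (adjusted p up to 0.169). Npy relative to Sox10 stayed at 2.99 to 3.66 (inner ONL against nerve) and 2.89 to 3.55 (outer ONL against nerve), designs too small to pass the threshold without 1 library, and at -0.36 to 0.059 between outer and inner ONL. Counting depth limited Vip in all groups and Calcb and Sst in the groups at the floor.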
